A study of Homo sapiens with 9 samples.

Results

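The ABC transporters are a family of membrane pumps that use ATP to move drugs, lipids, peptides, heme precursors and other molecules across membranes, together with a few soluble relatives that act on ribosomes. The members described here were the protein-coding genes whose symbol is ABC, a letter from A to G and a number, found in both deposited tables, and there were 45 of them among 19799 protein-coding genes and 58174 genes in all. The RNA came from ES-2, an established ovarian carcinoma cell line, 72 h after transfection. The 9 libraries fall into 3 groups of 3: a control siRNA group (siC), a group transfected with a pool of siRNAs directed at IGF2BP1 (siIGF2BP1), and a group transfected with a pool directed at SRF (siSRF). Total RNA was depleted of ribosomal RNA and made into libraries with a directional kit. The libraries held between 6421764 and 9416175 reads on genes, with a median of 7377934, and levels are given as FPKM, which is reads divided by gene length and by library size, with the library sizes scaled against each other. All 9 libraries are of 1 cell line, and effects of a pool on other transcripts than its target were not tested with them.

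ABC proteins are built around a conserved ATP-binding domain, and subfamilies are named for the likeness of that domain. ABCA genes mostly move lipids, the ABCB and ABCC subfamilies hold both drug efflux pumps and transporters of organelles, ABCD proteins sit in peroxisomes or lysosomes, ABCE and ABCF proteins have no membrane part and serve translation, and ABCG genes export sterols or drugs. In ovarian carcinoma the drug pumps are studied for their part in resistance to chemotherapy. IGF2BP1 binds mRNAs in the cytoplasm and shields some of them from decay and from microRNAs, while SRF is a transcription factor that binds CArG boxes in promoters.

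The targeted genes were low where the labels say they should be. IGF2BP1 measured 12.8, 13.5 and 12.1 FPKM in siC, 4.18, 4.14 and 4.02 in siIGF2BP1, and 13.7, 14.6 and 14.4 in siSRF. It fell by 1.61 on the log2 scale in siIGF2BP1 against siC (adjusted p = 0.000141, limma). SRF measured 13.6, 14.1 and 16.0 FPKM in siC, 5.80, 5.42 and 6.80 in siIGF2BP1, and 1.63, 1.36 and 1.42 in siSRF. It fell by 3.22 in siSRF (adjusted p = 6.1e-05) and by 1.26 in siIGF2BP1 (adjusted p = 0.00111), so the siIGF2BP1 group also carried less SRF mRNA. In bulk RNA, fewer cells with a transcript and less of it per cell cannot be told apart.

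Markers of the labelled cell type were only partly present. Of 10 ovarian carcinoma epithelial markers, the keratins KRT7, KRT8 and KRT18 were measured in every library (KRT7 between 97.5 and 158 FPKM), PAX8 and WT1 did not pass 0.262 and 0.198 FPKM, EPCAM was at 0 in siC and did not pass 0.259 FPKM elsewhere, CDH1 and KRT19 were at 0 in most libraries, and MUC16 had no read. Against siC, KRT7 rose in both knockdowns (log2 fold change 0.59 and 0.33), KRT8 rose in siIGF2BP1 (0.55) and KRT18 rose in siSRF (0.91). KRT8 missed the threshold without any 1 of its 6 libraries (adjusted p up to 0.0229), KRT7 did so in siIGF2BP1 without siIGF2BP1 replicate 3 (0.0116), and in siSRF without any library but siC replicate 2 (up to 0.0236). Directly, limma called KRT7 higher in siIGF2BP1 than in siSRF (0.26, adjusted p = 0.00579) and KRT18 lower (-0.98, adjusted p = 0.00183). KRT7 lost this call without any library but siIGF2BP1 replicate 2 (up to 0.0247), and KRT18 without siSRF replicate 2 (0.0111). Directly, limma-voom also called KRT8 (0.36, adjusted p = 0.000207) and PAX8 (1.62, adjusted p = 0.00400) higher. Of 4 leukocyte markers only ITGAM had a value above 0, in 1 library at 0.0208 FPKM, and of 4 hepatocyte markers ALB, APOA1 and TTR were at 0 while SERPINA1 lay between 0.0564 and 0.506 FPKM. The SERPINA1 mean was 0.111 FPKM in siC, 0.410 in siIGF2BP1 and 0.149 in siSRF, and siIGF2BP1 lay above all other libraries, not called by limma (1.31 against siC, adjusted p = 0.0872, on 47 reads in siIGF2BP1) but called by limma-voom against siC and directly (1.88 and 1.48, adjusted p = 0.00338 and 0.00655). Of 3 endothelial markers, VWF did not pass 0.0377 FPKM and PECAM1 did not pass 0.387 FPKM, and CDH5 made up 97.7% of their summed level, which averaged 9.71 FPKM in siC, 15.5 in siIGF2BP1 and 8.03 in siSRF. CDH5 rose in siIGF2BP1 (0.70, adjusted p = 0.00873, and above the threshold without any 1 library, up to 0.0418), and was higher in siIGF2BP1 than in siSRF by 0.93 (adjusted p = 0.000243, called in all 6 fits that leave out a library). PECAM1, at means of 0.313, 0.325 and 0.0975 FPKM, was lowest in siSRF, where it rested on 17 reads and lay below the 0.1 FPKM of the filter used here. By limma it was not called in siSRF against siC (-1.10, adjusted p = 0.121) or directly (1.14, adjusted p = 0.0848). By limma-voom it was called in both (-1.83, adjusted p = 0.00155, and 1.88, adjusted p = 0.000644). The part of these markers in the results for ABC genes was not tested.

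Levels within the family ran over a wide range. ABCF2, a soluble ATPase linked to ribosome assembly, was the most abundant member in siC at 47.7 ± 2.63 FPKM (SD, n = 3). ABCE1, which splits ribosomes after translation has ended, followed at 23.9 ± 3.79 FPKM. ABCC4 and ABCC2, both drug pumps, stood at 12.7 ± 0.428 and 10.5 ± 0.624 FPKM. In all, 5 members reached 10 FPKM in siC and 21 reached 1 FPKM. ABCC4 and ABCC2, next to each other in this order, did not overlap in siC, while ABCG2 and ABCA1, both at 1.09 FPKM, did not differ beyond their spread.

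Many other members had few reads or none. A filter on low values, for which the 6 libraries of a comparison had to average 0.1 FPKM or more, was passed by 29 members in each comparison, and 16 fell below it. Of these 16, ABCA4, ABCA9, ABCB11, ABCC8, ABCG5 and ABCG8 had no read in any library, where the level that 3 reads would give lay between 0.0360 and 0.170 FPKM, counting error only. ABCA8, ABCA12 and ABCB5 had 1 read each over 9 libraries, ABCG1 and ABCG4 had 2, ABCA6 had 3, ABCA10 had 5, ABCC12 had 8 and ABCC11 had 10. ABCC6, the transporter mutated in pseudoxanthoma elasticum, had 32 reads and the highest mean below the filter, 0.0613 FPKM. Thus the sterol exporters ABCG1, ABCG5 and ABCG8, the bile salt pump ABCB11 and the retinal transporter ABCA4 were not detectable or nearly so at this depth. ABCC9 was the 1 member that passed with a group mean below 0.1 FPKM.

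**Figure D1:**
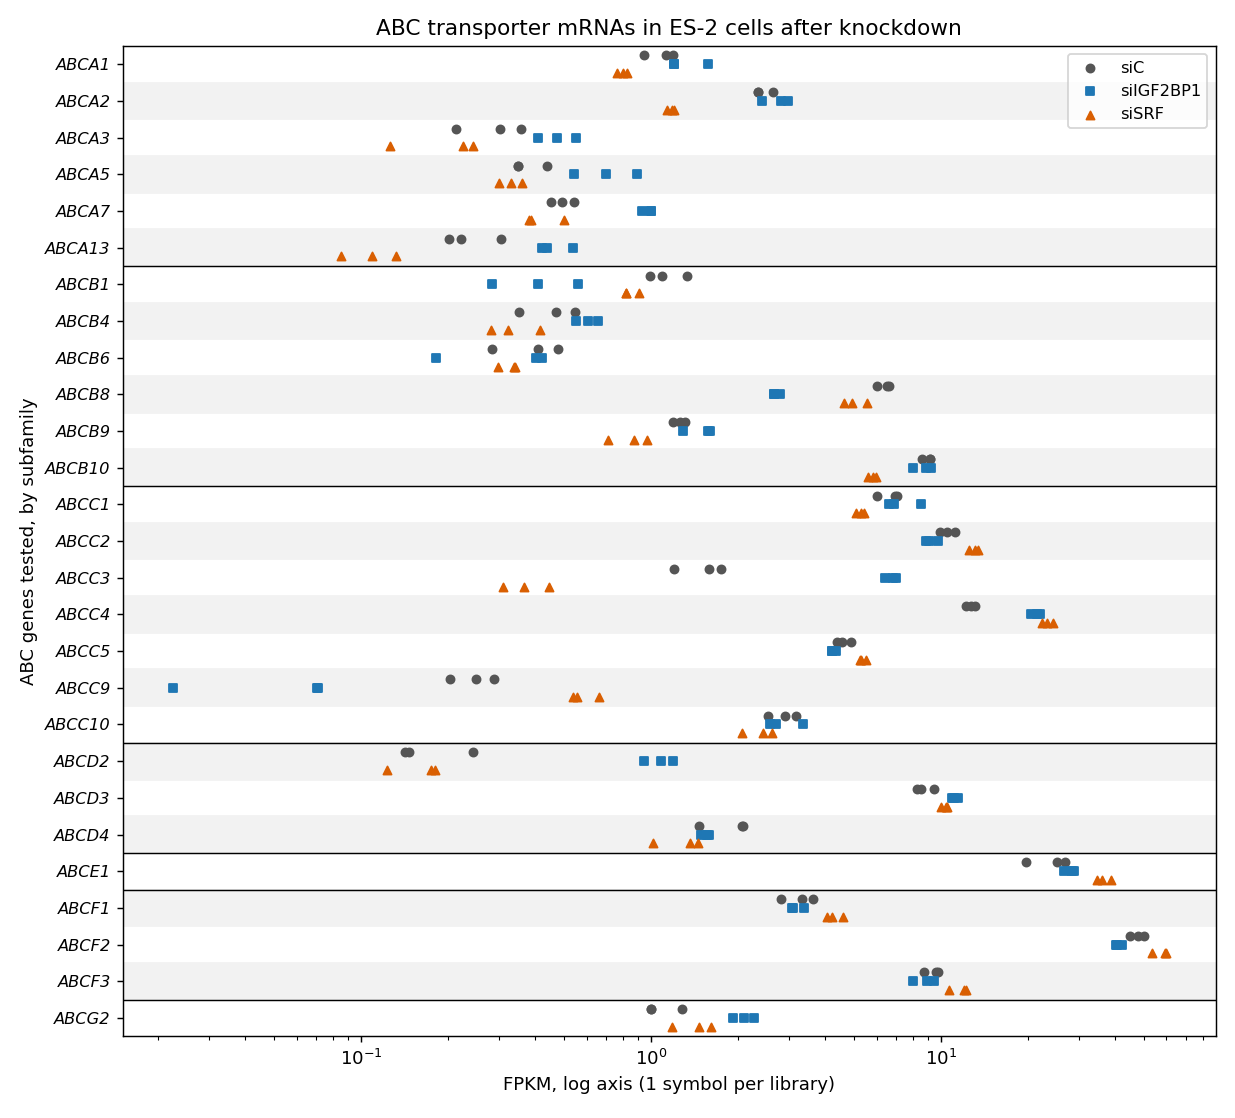
Level of 27 of the 29 ABC genes that passed the filter, in FPKM on a log axis, with 1 point per library and colours for siC, siIGF2BP1 and siSRF. ABCF2 and ABCE1 lie at the high end and ABCD2 and ABCC9 at the low end, and the 3 colours separate for ABCC3.

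The first question was which ABC genes differ after knockdown of IGF2BP1. A gene was called when its adjusted p (limma on log2 FPKM, Benjamini-Hochberg over all genes kept) was at most 0.01. Against siC, ABCC3, ABCC4 and ABCD2 rose and ABCB8 fell in siIGF2BP1. That is 3 of 29 tested members called higher, where 5.52% of 12512 protein-coding genes tested were, and 1 of 29 called lower, where 5.91% were. The median log2 fold change was 0.23 over the 29 members and -0.01 over the protein-coding genes, with 17 members above 0 and 12 below. No test was made of the members as a group. With limma-voom on the reads, 10 members were called higher against 13.7% of protein-coding genes, and 4 were called lower against 14.3%. The 3 libraries of a group lay wholly above or below those of the other for 19 members (65.5%), where 50.6% of protein-coding genes did so. The exact permutation test gives all such genes p = 0.1, the smallest it can reach with 3 libraries against 3.

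The second question was which ABC genes differ after knockdown of SRF itself. Against siC, ABCA2, ABCB10 and ABCC3 fell and ABCC4 rose in siSRF. That is 3 of 29 members called lower, where 8.67% of 12381 protein-coding genes were, and 1 called higher, where 11.1% were. The member median was -0.20 and the protein-coding median 0.02, with 18 members below 0 and 11 above. With limma-voom, 7 members were called lower against 17.5% of protein-coding genes, and 6 were called higher against 20.9%. The groups did not overlap for 20 members (69.0%), against 57.3% of protein-coding genes. No test was made of the members as a group here either, and the account below is of single genes. Without any 1 library the number of members called was 2, except without siC replicate 2, where it was 3.

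Both comparisons above share the siC libraries, so the difference between the knockdowns was also tested directly, siIGF2BP1 against siSRF. ABCA2, ABCB10, ABCC3 and ABCD2 were among the members higher in siIGF2BP1, and ABCB8, ABCC2, ABCC9, ABCE1 and ABCF2 were lower. In all, 5 of 29 members were called in each direction, where 13.7% of 12507 protein-coding genes were called higher and 18.3% lower. The member median was 0.27 and the protein-coding median -0.02, with 18 members above 0 and 11 below. With limma-voom, 12 members were called higher against 22.6% of protein-coding genes, and 9 were called lower against 26.6%. The groups did not overlap for 27 members (93.1%), against 65.6% of protein-coding genes. When limma took replicate numbers as blocks, the members called were 0 in siIGF2BP1 against siC (11 at an unadjusted p under 0.05, 14 with limma-voom without blocks), 1 in siSRF against siC (ABCC4) and 2 in the direct comparison (ABCC3 and ABCB10). With the blocks 0.703%, 3.76% and 15.1% of protein-coding genes were called, and 36.1% of them had an unadjusted p under 0.05 in siIGF2BP1 against siC.

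**Figure D2:**
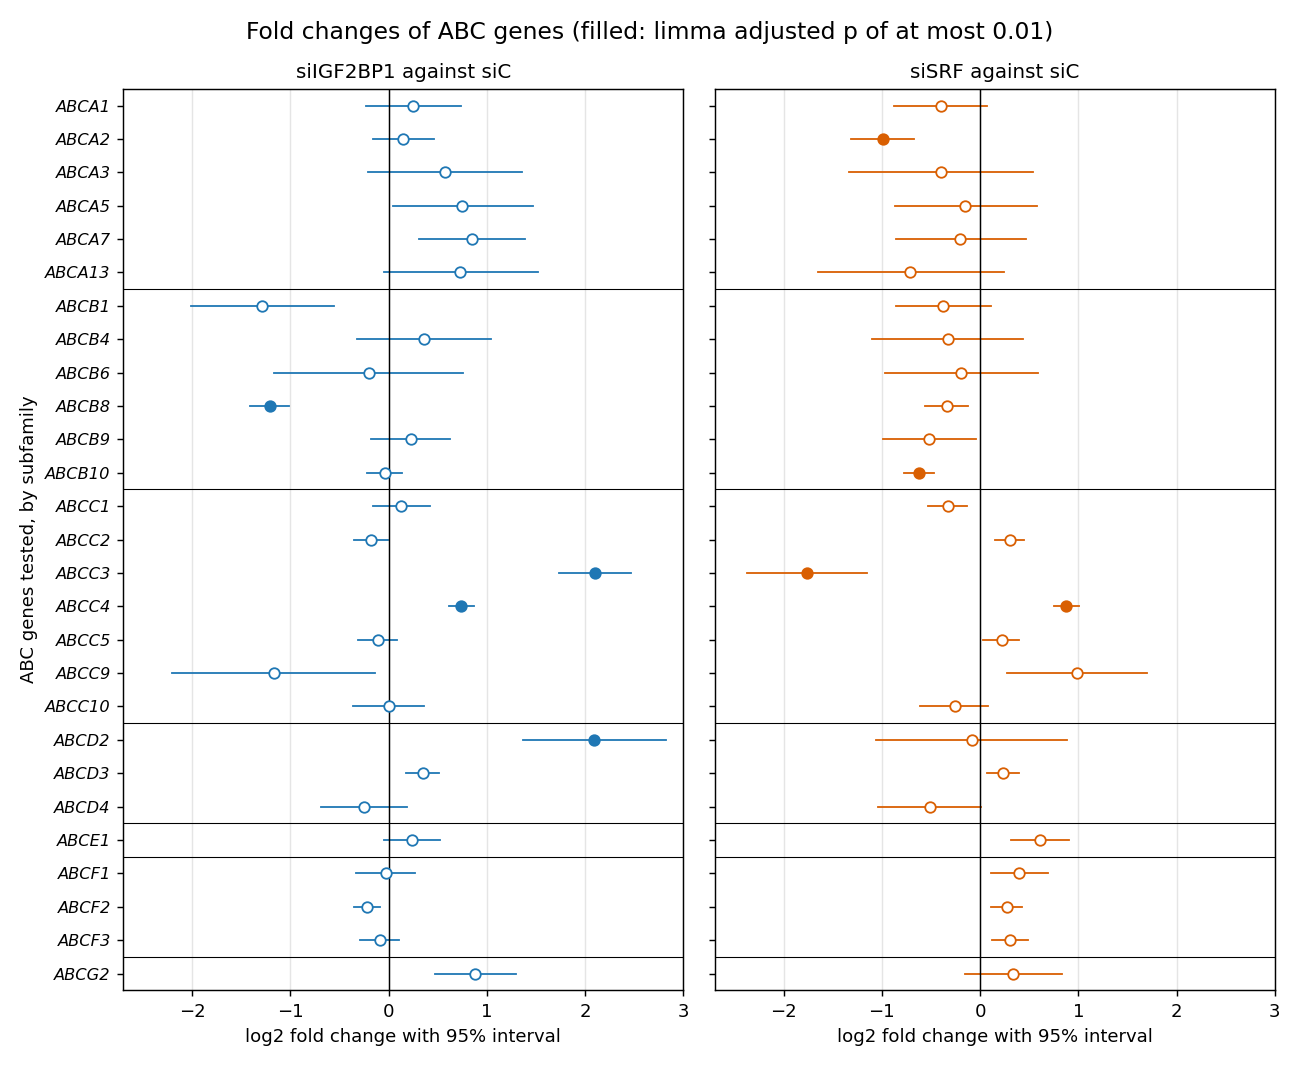
Log2 fold change of 27 of the 29 tested ABC genes, each with its 95% interval (limma), siIGF2BP1 against siC and siSRF against siC, with filled symbols for adjusted p of at most 0.01. ABCC3 lies at 2.10 in siIGF2BP1 and -1.76 in siSRF, while ABCC4 lies above 0 in both.

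The ABCC subfamily holds the multidrug resistance proteins and most of the drug efflux pumps. ABCC3 (ENSG00000108846, chr17:50634777-50692253, plus strand, GRCh38) exports bile acids, glucuronides and some drugs from cells. It measured 1.20, 1.59 and 1.74 FPKM in siC, 6.84, 6.99 and 6.40 in siIGF2BP1, and 0.364, 0.445 and 0.310 in siSRF. Every siIGF2BP1 library was above every siC library and every siSRF library was below them, so the 3 groups did not overlap. ABCC3 rose to 446% of its siC mean in siIGF2BP1 (6.74 against 1.51 FPKM), a log2 fold change of 2.10 (SE 0.152, 95% interval 1.73 to 2.47, adjusted p = 0.000657). It fell to 24.7% of the siC mean in siSRF (0.373 FPKM), a log2 fold change of -1.76 (SE 0.253, 95% interval -2.37 to -1.15, adjusted p = 0.00450). Directly, siIGF2BP1 lay above siSRF by 3.86 (SE 0.157, adjusted p = 2.8e-05), the largest difference among the members tested. Leaving out any 1 library kept the rise (1.95 to 2.21) and the direct difference (3.76 to 3.97). The fall in siSRF missed the threshold without any 1 of the 6 libraries (adjusted p between 0.0114 and 0.0215, log2 fold change between -1.91 and -1.66).

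ABCC4 (ENSG00000125257, chr13:95019835-95301475, minus strand) exports cyclic nucleotides, prostaglandins and nucleoside drugs. It measured 12.7, 12.2 and 13.1 FPKM in siC, 20.4, 21.5 and 21.9 in siIGF2BP1, and 24.4, 22.4 and 23.2 in siSRF. Both knockdown groups lay wholly above siC, and siSRF wholly above siIGF2BP1. ABCC4 rose to 168% of its siC mean in siIGF2BP1 (log2 fold change 0.74, SE 0.0522, 95% interval 0.62 to 0.87, adjusted p = 0.000601). It rose to 184% in siSRF (0.88, SE 0.0528, 95% interval 0.75 to 1.01, adjusted p = 0.000365). The direct difference did not pass (-0.13, 95% interval -0.25 to -0.01, adjusted p = 0.0922). Leaving out any 1 library kept both calls (0.72 to 0.77 and 0.84 to 0.91). Of the summed level of the 10 drug efflux pumps ABCC4 alone made up 30.8% in siC, 39.2% in siIGF2BP1 and 44.9% in siSRF.

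The other ABCC pumps were not called against siC by limma, while limma-voom called ABCC2 higher (adjusted p = 0.00246) and ABCC1 lower (adjusted p = 0.00371) in siSRF. ABCC2, which carries conjugated bilirubin and platinum drugs out of cells, measured 10.5, 9.96 and 11.2 FPKM in siC, 9.12, 9.81 and 8.90 in siIGF2BP1, and 12.5, 13.1 and 13.4 in siSRF. The siSRF libraries were the highest and the siIGF2BP1 libraries the lowest, without overlap. Neither comparison with siC passed (-0.18, adjusted p = 0.148, and 0.30, adjusted p = 0.0171), but the knockdowns differed by -0.48 (SE 0.0574, adjusted p = 0.00129). With all 9 libraries in 1 limma fit the rise of ABCC2 in siSRF was called (adjusted p = 0.00767). ABCC1, an exporter of glutathione conjugates and several anticancer drugs, measured 6.04, 6.94 and 7.06 FPKM in siC, 8.52, 6.62 and 6.92 in siIGF2BP1, and 5.11, 5.29 and 5.44 in siSRF. Its siSRF libraries were below all others while siC and siIGF2BP1 overlapped, and limma called no comparison (0.13, -0.33 and 0.46, adjusted p = 0.520, 0.0336 and 0.0176), while the direct difference was called by limma-voom (adjusted p = 4.9e-05) and with all 9 libraries in 1 fit (adjusted p = 0.00942). ABCC5, an exporter of cyclic nucleotides and nucleotide analogues, measured 4.55, 4.37 and 4.91 FPKM in siC, 4.35, 4.21 and 4.21 in siIGF2BP1, and 5.32, 5.25 and 5.52 in siSRF. Here siSRF again lay above the rest, and the direct difference was -0.33 (adjusted p = 0.0107, called by limma-voom). ABCC10, which transports taxanes, measured 3.17, 2.91 and 2.53 FPKM in siC, 3.36, 2.70 and 2.57 in siIGF2BP1, and 2.06, 2.44 and 2.62 in siSRF. The ABCC10 groups overlapped in all 3 comparisons, and none passed (0.00, -0.26 and 0.26, adjusted p = 0.996, 0.251 and 0.248).

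The best-known pumps outside ABCC were expressed at about 1 FPKM in siC. ABCB1, P-glycoprotein, measured 0.991, 1.09 and 1.33 FPKM in siC, 0.562, 0.283 and 0.407 in siIGF2BP1, and 0.821, 0.907 and 0.818 in siSRF. The siIGF2BP1 libraries were the lowest of all, at 36.7% of the siC mean, and rested on 25, 12 and 20 reads. The log2 fold change of -1.29 did not pass (adjusted p = 0.0338), while limma-voom on the same reads called it (-1.47, adjusted p = 7.1e-05). It was also called with all 9 libraries in 1 limma fit (adjusted p = 0.00887). In siSRF the value was -0.38 (adjusted p = 0.244), and the direct difference was -0.91 (adjusted p = 0.0595), called by limma-voom (-1.06, adjusted p = 0.00203). ABCG2, the breast cancer resistance protein, which exports urate, porphyrins and many drugs, measured 1.00, 1.00 and 1.28 FPKM in siC, 2.26, 1.92 and 2.09 in siIGF2BP1, and 1.47, 1.61 and 1.18 in siSRF. Its siIGF2BP1 libraries were above all others, and siSRF and siC overlapped. The log2 fold change was 0.88 in siIGF2BP1 (adjusted p = 0.0183, called by limma-voom) and 0.34 in siSRF (adjusted p = 0.290). With all 9 libraries in 1 limma fit the rise of ABCG2 in siIGF2BP1 was called (adjusted p = 0.00846). Of the 10 drug efflux pumps, 8 were tested and ABCB5 and ABCC11 were not, and the median log2 fold change over the 8 was 0.07 in siIGF2BP1, -0.02 in siSRF and 0.07 directly. Calls among the 8 were 2 higher in siIGF2BP1 (ABCC3, ABCC4), 1 higher and 1 lower in siSRF (ABCC4, ABCC3) and 1 in each direction directly (ABCC3 higher, ABCC2 lower). Over protein-coding genes 5.52% were called higher and 5.91% lower in siIGF2BP1, 11.1% and 8.67% in siSRF, and 13.7% and 18.3% directly, and these are the shares to read beside the counts of this and each later list.

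**Figure D3:**
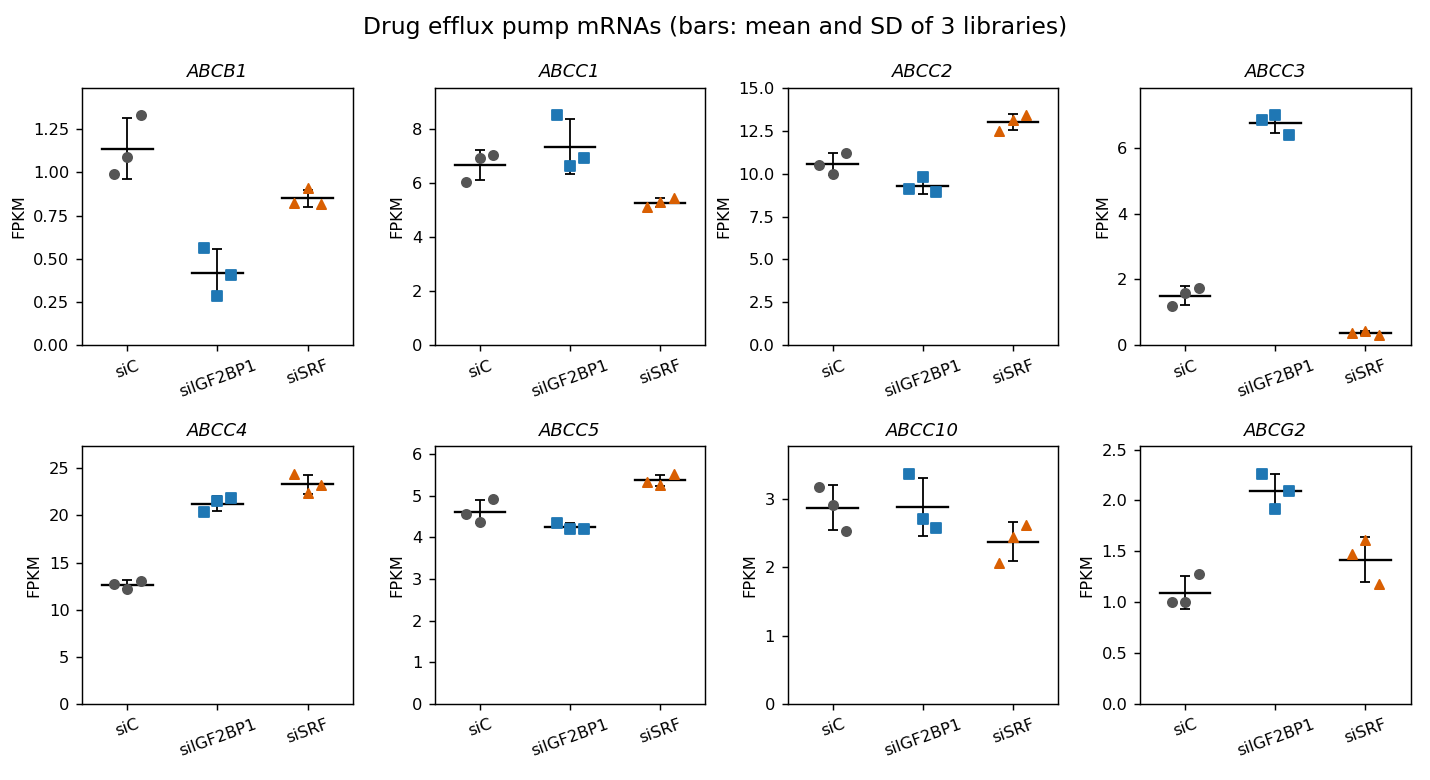
Level of the 8 tested drug efflux pumps in FPKM, 1 panel per gene with axes from 0, points for the 3 libraries of siC, siIGF2BP1 and siSRF and bars for the mean and SD. ABCC3 separates into 3 levels (means 1.51, 6.74 and 0.373 FPKM), ABCC4 is higher in both knockdowns, and ABCB1 is lowest in siIGF2BP1.

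Sequence matches to the let-7 microRNAs were looked up because IGF2BP1 is known to protect some mRNAs from this family. The mature let-7a, from RefSeq, is shown with its seed (bases 2 to 8, shared by 9 mature sequences in the table) in capitals, followed by the stretches around the seed match CTACCTC, in capitals, in the 3′ untranslated regions of 3 ABCC pumps and of ABCB9, a lysosomal peptide transporter. The stretches are from GENCODE transcripts on GRCh38, each on the strand of its gene: ABCC2 at chr10:99851811-99851837 (plus), ABCC10 at chr6:43450174-43450200 (plus), ABCC5 at chr3:183920149-183920175 (minus) and ABCB9 at chr12:122928997-122929023 (minus).
hsa-let-7a-5p: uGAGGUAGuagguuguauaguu
ABCC2: aaacccctcgattgtCTACCTCgatcg
ABCC10: ttctcctctggggctCTACCTCtccac
ABCC5: gtactgtaaagagacCTACCTCaggtt
ABCB9: ggtcaataaagtgtaCTACCTCttacc
Of the 29 tested members these 4 (13.8%) held a match, where 10.8% of 12417 protein-coding genes with a known 3′ untranslated region did, and ABCG4, too low to test, held another. In siIGF2BP1 against siC the median log2 fold change was -0.06 over the 4 members and 0.25 over the other 25, and over protein-coding genes it was 0.01 with a match and -0.01 without. ABCB8, ABCC3, ABCC4 and ABCD2, the members called in the same comparison, held none. A match is a description of letters, and binding of let-7 or IGF2BP1 was not measured in these libraries.

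ABCC9 is not a drug pump but a sulphonylurea receptor, the regulatory part of an ATP-sensitive potassium channel. It measured 0.287, 0.203 and 0.250 FPKM in siC, 0.0225, 0.0708 and 0.0711 in siIGF2BP1, and 0.664, 0.557 and 0.537 in siSRF. The siIGF2BP1 libraries were the lowest and the siSRF libraries the highest, without overlap, on 59, 15 and 160 reads per group. Neither comparison with siC passed (-1.17, adjusted p = 0.127, and 0.99, adjusted p = 0.0581), and limma-voom called both (-2.19, adjusted p = 0.000288, in siIGF2BP1). The direct difference was -2.16 (SE 0.360, adjusted p = 0.00509), lost without any 1 of its 6 libraries (adjusted p between 0.0130 and 0.0278), and -3.41 with limma-voom. With a siIGF2BP1 mean of 0.0548 FPKM, below the filter and near the added 0.1 FPKM, the size of this difference depends on the fit. Its pore partner KCNJ8 measured 1.04, 1.54 and 1.34 FPKM in siC, 0.998, 0.717 and 1.24 in siIGF2BP1, and 2.09, 1.99 and 1.37 in siSRF, with no call by either fit. Of the other genes of that channel list, ABCC8 had no read and KCNJ11 had a value in 1 library only (0.0342 FPKM). Over ABCC9 and KCNJ8 the median was -0.78 in siIGF2BP1, 0.71 in siSRF and -1.49 directly.

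Among the ABCA genes, which carry sterols and phospholipids, 6 of 12 were tested. ABCA2 (ENSG00000107331, chr9:137007234-137028915, minus strand), an endolysosomal lipid transporter, measured 2.34, 2.63 and 2.35 FPKM in siC, 2.98, 2.80 and 2.42 in siIGF2BP1, and 1.14, 1.18 and 1.20 in siSRF. The siSRF libraries were at less than the level of any other library, and siC and siIGF2BP1 overlapped. ABCA2 fell to 48.1% of its siC mean in siSRF (log2 fold change -0.99, SE 0.132, 95% interval -1.31 to -0.67, adjusted p = 0.00350), but without any 1 library the adjusted p lay between 0.0123 and 0.0166. It was higher in siIGF2BP1 than in siSRF by 1.15 (SE 0.136, adjusted p = 0.00128), kept in all 6 fits that leave out a library. ABCA7, which moves phospholipids and serves phagocytosis, measured 0.453, 0.492 and 0.545 FPKM in siC, 0.998, 0.999 and 0.931 in siIGF2BP1, and 0.385, 0.380 and 0.503 in siSRF. Its siIGF2BP1 libraries were above all others, yet the log2 fold change of 0.85 did not pass (adjusted p = 0.0496). ABCA3, ABCA5 and ABCA13 lay between 0.0853 and 0.896 FPKM over the 9 libraries and were not called by limma in any comparison. ABCA1, the cholesterol exporter that forms HDL, had means of 1.09, 1.32 and 0.797 FPKM in siC, siIGF2BP1 and siSRF and was not called by limma in any comparison. Over the 6 genes the median log2 fold change was 0.65 in siIGF2BP1, -0.40 in siSRF and 1.01 directly, and limma-voom called 3 of them higher in siIGF2BP1 against siC, 2 lower in siSRF against siC and 6 higher directly, where it called 13.7%, 17.5% and 22.6% of protein-coding genes in these directions.

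ABCA genes overlap in function with ABCB4, the phosphatidylcholine floppase of bile, and with the sterol exporters of ABCG. Of these 10 sterol and lipid exporters, 5 were tested, with medians of 0.36 in siIGF2BP1, -0.40 in siSRF and 0.97 directly, and ABCA2 was the 1 gene called. Several exporters are induced by liver X receptors, nuclear receptors for oxysterols, and of 11 genes of that pathway 10 were tested. Called were 2 lower and 1 higher in siIGF2BP1 (median -0.11), 4 lower in siSRF (median -0.62) and 2 higher directly (median 0.29), of which 1 of 3, 2 of 4 and 2 of 2 kept their calls in all fits that leave out a library. PLTP, 1 of the 4 lower in siSRF (-0.37), also lost its call with the trends along GC content and gene length taken out (-0.17, adjusted p = 0.0794, limma). SREBF1, the lipogenic transcription factor, measured 13.3, 14.3 and 12.9 FPKM in siC, 8.07, 7.38 and 7.34 in siIGF2BP1, and 6.65, 6.23 and 7.13 in siSRF, and fell in both (-0.82 and -1.01).

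Of the 4 ABCB genes of mitochondria, limma called 1 against siC in each knockdown. ABCB8 (ENSG00000197150, chr7:151028422-151047782, plus strand), part of a mitochondrial potassium channel and needed for iron export, measured 6.02, 6.51 and 6.65 FPKM in siC, 2.65, 2.79 and 2.66 in siIGF2BP1, and 4.62, 4.92 and 5.55 in siSRF. The siIGF2BP1 libraries lay closely together, far below the rest, and the siSRF libraries lay between. ABCB8 fell to 42.2% of its siC mean in siIGF2BP1 (2.70 against 6.39 FPKM), a log2 fold change of -1.21 (SE 0.0834, 95% interval -1.41 to -1.01, adjusted p = 0.000590). In siSRF its log2 fold change was -0.34 and missed the threshold (adjusted p = 0.0412; called by limma-voom, adjusted p = 0.00199), and the knockdowns differed by -0.87 (SE 0.0963, adjusted p = 0.000965).

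ABCB10 (ENSG00000135776, chr1:229516582-229558707, minus strand), which supports heme synthesis in the inner membrane, measured 8.58, 9.16 and 9.16 FPKM in siC, 8.00, 8.92 and 9.24 in siIGF2BP1, and 5.60, 5.83 and 5.99 in siSRF. Only siSRF stood apart, below every library of the other groups. ABCB10 fell to 64.7% of its siC mean in siSRF (log2 fold change -0.62, SE 0.0630, 95% interval -0.77 to -0.47, adjusted p = 0.00142), and the direct difference was 0.58 (SE 0.0737, adjusted p = 0.00170). ABCB6, a porphyrin transporter, ranged from 0.181 to 0.478 FPKM over the 9 libraries with no call. Neither were ABCB4 (0.281 to 0.659 FPKM) and ABCB9 (0.710 to 1.60 FPKM) called by limma, while limma-voom called ABCB9 in siSRF (-0.58, adjusted p = 0.00197) and directly (0.83, adjusted p = 9.7e-06). Over the 4 mitochondrial genes the median was -0.12 in siIGF2BP1, -0.26 in siSRF and 0.12 directly, and over the 7 tested ABCB genes it was -0.04, -0.34 and 0.25.

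Of 12 genes of iron-sulphur cluster and heme synthesis, all tested, 1 was lower and 1 higher in siIGF2BP1 (median 0.06), 1 lower and 2 higher in siSRF (median 0.18), and 3 lower and 1 higher directly (median -0.08). In all fits that leave out a library, 0 of 2, 1 of 3 and 3 of 4 of these calls were kept, and CPOX, the gene called higher in siIGF2BP1 (0.38, adjusted p = 0.00700), lost its call without any 1 library (adjusted p up to 0.0367). UROD, an enzyme of heme synthesis, fell in siIGF2BP1 (-0.50) and rose in siSRF (0.34), with a direct difference of -0.84 (adjusted p = 3.2e-05). The adjusted p of UROD in siIGF2BP1 lay above the threshold without any library but siC replicate 1 (up to 0.0168), and in siSRF without any 1 library (up to 0.0368). ALAS1, the first enzyme of the pathway, rose in siSRF by 0.61 (adjusted p = 0.00268, up to 0.0155 without siC replicate 3 or any siSRF library), while UROS fell by 0.66 (adjusted p = 0.00142).

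The ABCD genes, which serve peroxisomes and lysosomes, were all tested, 4 of 4. ABCD2 (ENSG00000173208, chr12:39550033-39619803, minus strand), a peroxisomal importer of very long chain and polyunsaturated fatty acids, measured 0.146, 0.142 and 0.244 FPKM in siC, 1.19, 1.08 and 0.946 in siIGF2BP1, and 0.180, 0.123 and 0.174 in siSRF. The siIGF2BP1 libraries stood far above the rest, on 156 reads against 23 in siC and 23 in siSRF. ABCD2 rose to 605% of its siC mean in siIGF2BP1 (log2 fold change 2.09, SE 0.302, 95% interval 1.37 to 2.82, adjusted p = 0.00657). With a siC mean of 0.177 FPKM, near the added 0.1 FPKM, the size depends on the fit (limma-voom gave 2.54, and 2.71 directly). Without any 1 library the adjusted p lay between 0.0132 and 0.0323 and the log2 fold change between 2.01 and 2.26. With every gene of any value kept, the adjusted p was 0.0121. Its direct difference was 2.18 (SE 0.279, adjusted p = 0.00171, and 0.0110 without siIGF2BP1 replicate 1).

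ABCD3, a peroxisomal importer of branched-chain acyl-CoA and bile acid precursors, measured 8.30, 8.55 and 9.47 FPKM in siC, 11.1, 11.5 and 10.9 in siIGF2BP1, and 10.4, 10.0 and 10.5 in siSRF. Both knockdown groups lay above siC, with no call by limma (0.35, adjusted p = 0.0199, and 0.23, adjusted p = 0.0524). The rise in siIGF2BP1 was called by limma-voom (adjusted p = 0.00130) and with all 9 libraries in 1 limma fit (adjusted p = 0.00434). ABCD4, which helps cobalamin leave lysosomes, lay between 1.02 and 2.08 FPKM with no call by either fit. Over the 4 genes the median was 0.77 in siIGF2BP1, -0.30 in siSRF and 1.11 directly.

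Other peroxisomal genes were read as a list. Of 10 genes of peroxisomal beta-oxidation and import, all tested, limma called 0 in siIGF2BP1 against siC (4 at an unadjusted p under 0.05, 2 with limma-voom, median 0.08), where 5.52% of protein-coding genes were called higher and 5.91% lower, PEX3, an import factor for membrane proteins, higher in siSRF (0.49, adjusted p = 0.00158, median of the list -0.10), where 11.1% were called higher, and 4 higher directly (median 0.22), where 13.7% were. Without siSRF replicate 1 or 2 the adjusted p of PEX3 was above the threshold (up to 0.0115). The strongest of the 4 was HSD17B4, the bifunctional enzyme (0.45, adjusted p = 0.000763), and it was the 1 that kept its call in all 6 fits that leave out a library, while ACAA1 and SCP2 lost theirs in each of these fits and ACOT8 in 5. Of 3 genes of lysosomal cobalamin release, the path that ABCD4 serves, limma called 0 in siIGF2BP1 (1 at an unadjusted p under 0.05, 0 with limma-voom, median -0.06), 0 in siSRF (2 and 2, median 0.23) and MMACHC, which frees the vitamin from its ligand, lower directly (-0.72, adjusted p = 0.00343, up to 0.0157 without any library but siSRF replicate 2, median of the list -0.29).

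The soluble members ABCE1, ABCF1, ABCF2 and ABCF3 were all highest in the siSRF libraries, without overlap. Of protein-coding genes 57.3% did not overlap in siSRF against siC and 65.6% directly, in either direction. In siSRF against siC limma called 0 of the 4 and limma-voom called 3. There ABCF1 gave 0.40 (adjusted p = 0.0580, limma) and ABCF3 gave 0.30 (adjusted p = 0.0343, limma). ABCE1 measured 25.2, 19.6 and 26.9 FPKM in siC, 26.6, 28.4 and 28.7 in siIGF2BP1, and 38.7, 35.9 and 34.5 in siSRF. The siSRF libraries were above all others, and siC and siIGF2BP1 overlapped. In siSRF against siC the log2 fold change was 0.61 and missed the threshold (adjusted p = 0.0142), but passed without siC replicate 2, the lowest library (0.00980), with limma-voom (8.1e-08), with all 9 libraries in 1 fit (0.00346) and with a filter of 1 FPKM (0.00869). Its direct difference of -0.38 (SE 0.0561, adjusted p = 0.00314) was lost without siSRF replicate 2 or any siIGF2BP1 library (adjusted p up to 0.0151) and with all 9 libraries in 1 fit (adjusted p = 0.0264). ABCF2 measured 44.9, 48.0 and 50.1 FPKM in siC, 40.1, 40.4 and 42.2 in siIGF2BP1, and 59.7, 59.5 and 53.4 in siSRF. The siSRF libraries were the highest and the siIGF2BP1 libraries the lowest, without overlap, and the direct difference was -0.49 (SE 0.0542, adjusted p = 0.000965). Against siC ABCF2 gave -0.22 and 0.27, neither called by limma (adjusted p = 0.0390 and 0.0273) and both by limma-voom (adjusted p = 0.00973 and 0.000586). With all 9 libraries in 1 limma fit the rise of ABCF2 in siSRF was called (adjusted p = 0.00926). ABCF1, which aids translation initiation, and ABCF3 gave direct differences of -0.43 and -0.39, not called by limma (adjusted p = 0.0135 and 0.0145) but by limma-voom. Over the 4 soluble members the median was -0.06 in siIGF2BP1, 0.35 in siSRF and -0.41 directly, and over the 3 ABCF genes it was -0.09, 0.30 and -0.43.

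The partners of ABCE1 in ribosome release and recycling are a list of 5 tested genes, with 1 called lower in siIGF2BP1 (median -0.24), 3 called higher in siSRF (median 0.36) and 4 called lower directly (median -0.53), where 5.91%, 11.1% and 18.3% of protein-coding genes were. Of these calls 0 of 1, 1 of 3 and 2 of 4 were kept in all fits that leave out a library. ETF1, the release factor that reads stop codons, measured 75.9, 70.7 and 80.3 FPKM in siC, 56.7, 59.4 and 59.4 in siIGF2BP1, and 114, 115 and 118 in siSRF. Its groups did not overlap, and it fell by 0.37 in siIGF2BP1 (adjusted p = 0.00824, up to 0.0351 without any library but siC replicate 2, and 0.0106 with every gene of any value kept) and rose by 0.61 in siSRF (adjusted p = 0.000916). HBS1L and GSPT1 rose in siSRF by 0.50 and 0.36, calls that both lost without any library but siC replicate 3 (adjusted p up to 0.0265 and 0.0415) and with the trends along GC content and gene length taken out (0.32, adjusted p = 0.0125, and 0.22, adjusted p = 0.0161).

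**Figure D4:**
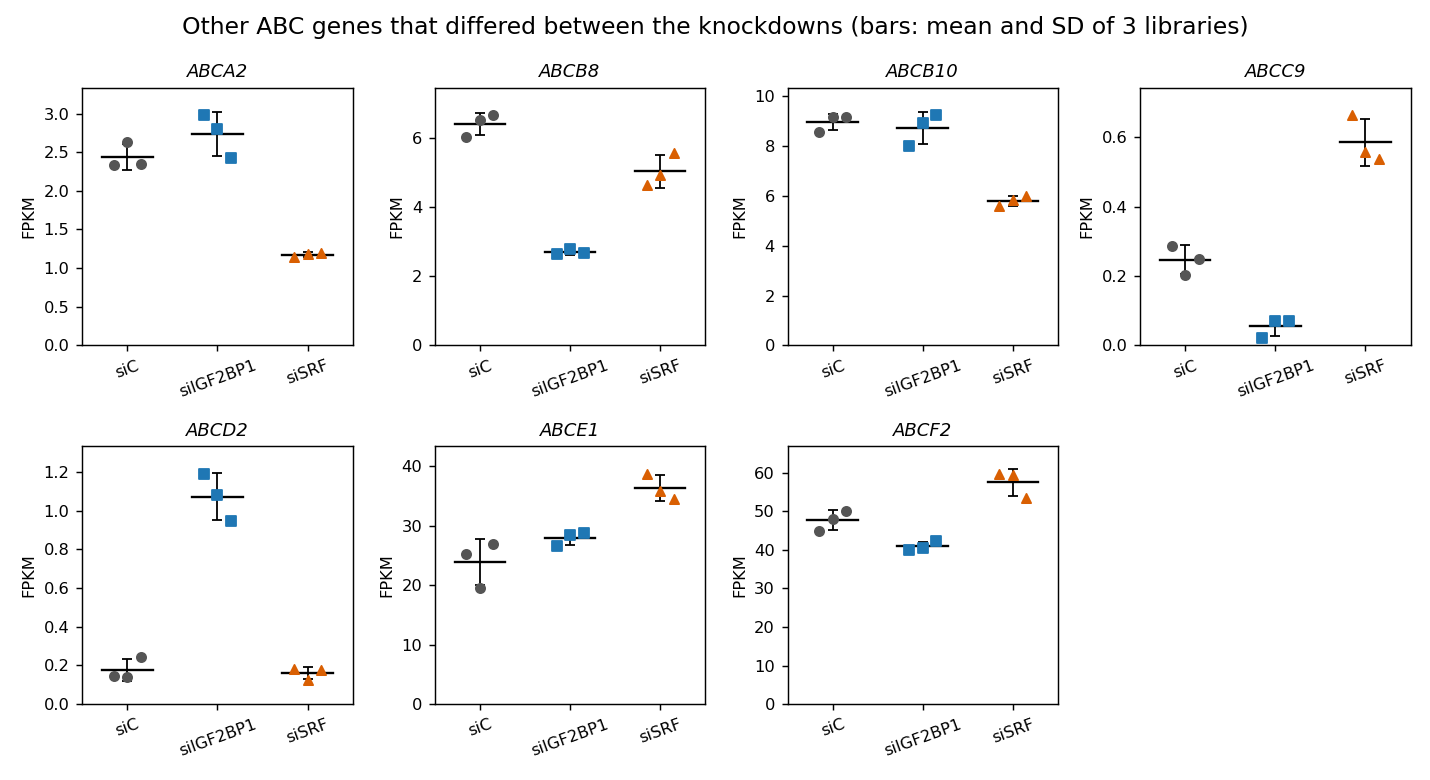
Level in FPKM of 7 further ABC genes that were called in at least 1 comparison, 1 panel per gene with axes from 0, points for libraries and bars for the mean and SD of 3 libraries. ABCB8 is low in siIGF2BP1, ABCA2 and ABCB10 are low in siSRF, and ABCD2 is high in siIGF2BP1.

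Summed over all 45 members, the siC level was 176 ± 6.41 FPKM (SD, n = 3), that of siIGF2BP1 193 ± 1.63 and that of siSRF 207 ± 5.39 FPKM, and over all libraries ABCF2 made up 25.4%. The sum over the ABCC genes was 39.2 ± 1.40, 52.0 ± 0.837 and 50.4 ± 0.737 FPKM, in the same order of groups, and lay above siC in both knockdowns. The ABCA sum was 4.95 ± 0.294, 6.72 ± 0.562 and 3.04 ± 0.110 FPKM, highest in siIGF2BP1 and lowest in siSRF. The ABCD sum was 12.0 ± 0.414, 16.6 ± 0.972 and 12.4 ± 0.256 FPKM, with siIGF2BP1 apart from the rest. The ABCB sum of 34.7 ± 0.980, 34.4 ± 1.04 and 30.1 ± 0.571 FPKM was lowest in siSRF. The ABCF sum of 60.3 ± 3.50, 52.9 ± 1.92 and 73.5 ± 3.42 FPKM and the ABCE1 level of 23.9 ± 3.79, 27.9 ± 1.11 and 36.4 ± 2.17 FPKM were highest in siSRF. The ABCG sum, 1.11 ± 0.151, 2.09 ± 0.168 and 1.43 ± 0.237 FPKM, was almost wholly ABCG2, the 1 tested gene of 5. The 10 drug efflux pumps summed to 41.1 ± 1.75, 54.3 ± 1.06 and 52.0 ± 0.503 FPKM. These sums are a description without a test.

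**Figure D5:**
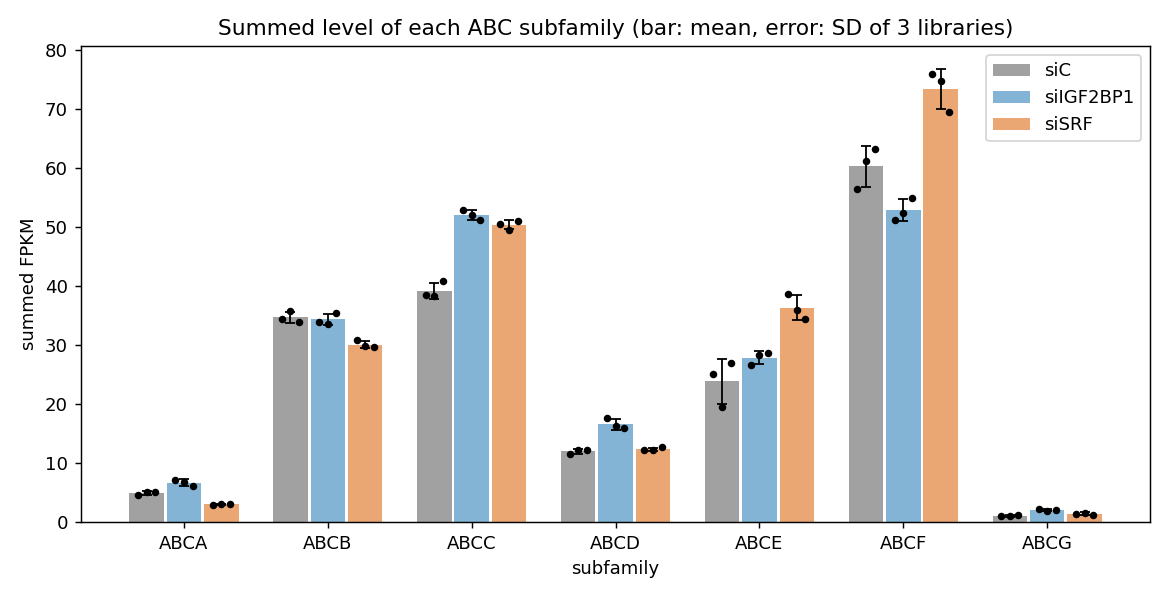
Summed FPKM of each ABC subfamily in siC, siIGF2BP1 and siSRF, with points for the 3 libraries and bars for the mean and SD. The ABCC sum lies above siC in both knockdowns (52.0 and 50.4 against 39.2 FPKM), and the ABCF sum is highest in siSRF (73.5 FPKM).

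Genes that work with the drug pumps were read from lists of their own. Of 12 genes of the xenobiotic and oxidant response, 10 were tested, with 1 higher in siIGF2BP1 (median -0.21), 2 lower and 1 higher in siSRF (median -0.17) and 3 lower and 4 higher directly (median -0.20). In all fits that leave out a library, 1 of 1, 2 of 3 and 4 of 7 calls were kept, and among those lost directly were HMOX1 (adjusted p up to 0.0129), GCLM (up to 0.0296) and AHR (up to 0.0194). NQO1, a quinone reductase driven by NRF2, measured 64.3, 64.9 and 68.8 FPKM in siC, 135, 134 and 140 in siIGF2BP1, and 47.8, 44.7 and 42.6 in siSRF. NQO1 thus lay in the order of ABCC3, rising by 1.04 in siIGF2BP1 (adjusted p = 0.000141) and falling in siSRF (-0.55, adjusted p = 0.00134, and 0.0103 without siSRF replicate 2). TXNRD1, another target of NRF2, went the other way, with 0.63 in siSRF (adjusted p = 0.00111) and a direct difference of -0.96. SLC7A11, the cystine importer, fell in siSRF (-0.94, adjusted p = 0.000851). Of 13 glutathione transferases, which make the conjugates that ABCC pumps export, 13 were tested in siIGF2BP1 (2 called higher, median 0.44), 12 in siSRF (2 called lower, median -0.08) and 13 directly (1 lower, 5 higher, median 0.57), with 1 of 2, 0 of 2 and 3 of 6 calls kept in all fits that leave out a library. GSTA4 in siIGF2BP1 and MGST3 in siSRF lost theirs without any 1 library (adjusted p up to 0.0388 and 0.0202). GSTM3 rose in siIGF2BP1 (0.66, adjusted p = 0.00109) and GSTP1 fell in siSRF (-0.89, adjusted p = 0.00290, up to 0.0164 without siC replicate 1 or any siSRF library).

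ABC family genes with other symbols fall outside the rule and were read beside it. TAP1 and TAP2, the peptide pumps of antigen presentation, lay between 0.281 and 0.573 FPKM with no call by limma or limma-voom in the 3 comparisons and 0 values at an unadjusted p under 0.05 (medians 0.18, 0.38 and -0.20), and CFTR, the chloride channel, had a value in 1 library only (0.0159 FPKM).

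Some members share position or sequence with other genes. ABCB8 and ABCF2 lie 163702 bases apart on chromosome 7, and limma called ABCB8 alone of them against siC, while limma-voom called both. ABCB1 and ABCB4 lie 22582 bases apart on the same chromosome, with log2 fold changes of -1.29 and 0.36 in siIGF2BP1, neither called by limma and ABCB1 called by limma-voom. On chromosome 17, ABCA5 was tested while its neighbours ABCA6, ABCA8, ABCA9 and ABCA10 had between 0 and 5 reads each. On the other strand, ABCE1 (29.4 FPKM over the 9 libraries) overlaps OTUD4 (7.44 FPKM) and ANAPC10 (2.99 FPKM), ABCB9 (1.20 FPKM) overlaps OGFOD2 (0.794 FPKM) and ARL6IP4 (0.289 FPKM), and ABCB1 (0.801 FPKM) overlaps RUNDC3B (0.211 FPKM), among others. Which strand was counted is not stated in the study's methods, so the part of such neighbours in the values of members was not tested. The pseudogene ABCC6P1 had 9 reads and ABCC6P2 had 8, and reads shared by such near copies cannot be assigned with certainty.

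Base composition moved with the fold changes across genes. In siSRF against siC, Spearman's rho between GC content and log2 fold change was -0.48 over the 29 members and -0.36 over 12347 protein-coding genes, and genes of 1 library are not independent replicates. In siIGF2BP1 against siC it was -0.09 over the members and -0.20 over 12477 protein-coding genes, and directly it was 0.20 and 0.15. With the trends along GC content and gene length taken out, the member values were 0.05 in siIGF2BP1, -0.13 in siSRF and 0.09 directly, and all calls among members listed above were kept, while ABCF2 and ABCF3 were among those added in siSRF, and ABCC5, ABCF1 and ABCF3 among those added directly.

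The promoters were searched for the CArG box, the element to which SRF binds. RefSeq windows from 250 bases before to 50 after the start (GRCh38) were found for 35 of the 45 members, 53 windows in all, and 0 of the 53 held a CArG box on either strand, where 1.29% of 35116 windows did. GGGCGG, a GC box core, was in 47.2% of the member windows against 45.0% of all, and TATAAA in 15.1% against 11.5%. Only the strict form of the CArG box was searched. At a share of 1.29%, 53 windows may well hold none, so the count of 0 does not set the members apart. The absence of these letters from a window says nothing of binding elsewhere, and SRF binding was not measured here.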

How the data were processed

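The authors deposited 2 tables, each with siC and 1 knockdown, whose per-library columns hold FPKM with library sizes scaled by TMM, next to the gene length in bases, and the siC values were identical in both. By the submitters' processing notes and the study's methods, reads were clipped with cutadapt (1.14), aligned to hg38 with HISAT2 (2.1.0), handled with SAMtools (1.5) and counted on Ensembl genes with featureCounts (1.5.3), and the authors computed the deposited values with edgeR (3.18.1). The tables' own columns of fold change, p-value and false discovery rate were not used, and 0 per-sample columns were left out. Reads were recovered from FPKM and gene length and were whole numbers within 0.01 for 100% of values.

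For each comparison, genes of any biotype that averaged 0.1 FPKM or more in its 6 libraries were fitted with limma (3.58.1, R 4.3.3; lmFit and eBayes with a trend) on log2(FPKM + 0.1), with Benjamini-Hochberg adjustment over all genes kept, and called at an adjusted p of at most 0.01. Single genes were also compared by a two-sided exact permutation test. The fit was also run on simulated reads for siIGF2BP1 against siC, drawn around the siC levels. The spread (a dispersion of 0.01) was set alike for all genes and not estimated from these libraries. Changed genes, 50 for each change, were drawn from those of at least 1 FPKM in siC, and all others were left unchanged. Of 50 genes each, limma called 40 raised by 2 on the log2 scale, 30 lowered by 2, 9 raised by 1 and 4 lowered by 1. Of 21320 genes tested it also called 21 unchanged ones, 0 of them protein-coding. The real comparison called 1588 genes, so shares from so few changed genes do not describe how many real changes the fit finds. Tables and figures were made with Python (3.11.15), pandas (2.3.3), numpy (2.4.6) and matplotlib (3.10.9). Fold changes are the first group named minus the second. Each depth gives counting error only, and floors are the level of 3 reads.

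The members and the gene lists were chosen with earlier results of these data known. The rule for library values named the members called in any comparison and the drug efflux pumps that averaged 0.1 FPKM or more in any group. It also named the 3 members highest in siC, IGF2BP1 and SRF, and of each other list the called genes, up to 4 with the smallest p. Of the called genes of other lists, SREBF1, NQO1 and ETF1 were given with library values. The rest were given without them, by fold change, adjusted p or count. A few genes that this rule names are counted but not described singly. ABCA7 and ABCD3 among the members and KCNJ8 were given with library values after these were seen. Named after their values were seen were SERPINA1, PECAM1, ACAA1, ACOT8, AHR, CPOX, GCLM, GSTA4, HMOX1, MGST3, PLTP and SCP2, most of them for a lost call. Lists were described by counts and medians, with no test. Replicate numbers come from the column titles, and nothing says that they are separate cultures, so p-values measure the spread between libraries, which may be technical.

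Positions, GC content and 3′ untranslated regions came from GENCODE (44) on GRCh38, a later annotation than the Ensembl release of the tables on the same build. MicroRNA and promoter sequences came from RefSeq. Alternatives tried were pseudocounts of 1 and 0.01 FPKM, no filter and a filter of 1 FPKM, limma-voom on the recovered reads, rescaling by median ratios, all 9 libraries in 1 fit, the replicate number as a block, trends along GC content and gene length taken out, an adjusted p of at most 0.05, and each library left out in turn.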

Additional observations from a re-analysis of the deposited data

Results flagged for a closer look

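When siIGF2BP1 was tested directly against siSRF (limma, adjusted p of at most 0.01), without the shared siC libraries, 5 of 29 ABC genes were called in each direction, of which 9 are given here. Of protein-coding genes 13.7% were called higher and 18.3% lower. With limma-voom 41.4% of members were higher and 31.0% lower, against 22.6% and 26.6% of protein-coding genes, and groups did not overlap for 93.1% against 65.6%. No test was made of the members as a group. On the log2 scale, siIGF2BP1 minus siSRF, the differences were 3.86 for ABCC3, 2.18 for ABCD2, 1.15 for ABCA2 and 0.58 for ABCB10, which were higher in siIGF2BP1. They were -2.16 for ABCC9, -0.87 for ABCB8, -0.49 for ABCF2, -0.48 for ABCC2 and -0.38 for ABCE1, which were lower in siIGF2BP1. ABCC9, at 0.0548 FPKM on 15 reads in siIGF2BP1 and so below the filter there, has a difference whose size depends on the fit (-3.41 with limma-voom), and it lost its call without any 1 of 6 libraries (adjusted p up to 0.0278), ABCE1 without siSRF replicate 2 or any siIGF2BP1 library (up to 0.0151) and with all 9 libraries in 1 fit (0.0264), and ABCD2 without siIGF2BP1 replicate 1 (0.0110).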

How the results depend on the processing

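Within each comparison, no member changed direction with a call under any alternative run. The same held for the genes of other lists that limma called in that comparison, and only these were checked. In siIGF2BP1 against siC, 4 ABC genes and 1588 genes of all kinds were called; in siSRF against siC, 4 and 2665; directly, 10 and 4460. With limma-voom on the reads these were 14 and 3805, 13 and 5123, and 21 and 6912. At an adjusted p of at most 0.05 they were 11 and 3596, 10 and 5205, and 19 and 7132. With all 9 libraries in 1 fit, 8 ABC genes and 2481 genes were called in siIGF2BP1 against siC, and 7 ABC genes in siSRF against siC. Leaving out 1 library at a time gave 436 to 738 genes in siIGF2BP1 against siC, 2 to 3 ABC genes and 946 to 1796 genes in siSRF against siC, and 2885 to 3358 genes directly, with fewer samples in the fit. Pseudocounts, filters, rescaling and the removal of GC trends kept each of these counts within 1.5 times. The causes of these differences in count were not tested.

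With the replicate number as a block, paired by number, 0 ABC genes (limma, 11 at an unadjusted p under 0.05 and 14 with limma-voom without the block) and 91 genes were called in siIGF2BP1 against siC, 1 and 501 in siSRF against siC, and 2 and 2075 directly. Across 14168 genes, deviations of same-numbered libraries had Pearson's r between -0.0438 and 0.0186.

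Of the values of single members under settings other than leaving out a library, 254 of 281 kept their side of the threshold in siIGF2BP1 against siC, 254 of 278 in siSRF against siC and 239 of 281 directly. With each library left out, 168, 161 and 163 of 174 did so, most of them values not called. Of the values of called members 18 of 24, 12 of 24 and 49 of 60 stayed called, and of those of other named genes, all called, 39 of 84, 64 of 114 and 136 of 198. Members below 1 FPKM rest on few reads, which limits what these libraries can show of them.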
